A study of Mus musculus with 12 samples.

Results

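The collagen genes outside the classical fibrillar group were followed in the early mouse heart. All genes whose array symbol reads Col, a number, the letter a and a number were taken, except Col1a1, Col1a2, Col2a1, Col3a1, Col5a1, Col5a2, Col11a1 and Col11a2. This gave 33 of the 19057 genes measured. RNA came from the atrioventricular canal (AVC), the segment of the heart tube in which the endocardial cushions form, and from the primary ventricle, labelled LV, of mouse embryos on embryonic day 9, called E9, and on embryonic day 10, called E10. Illumina bead arrays were run in 4 groups of 3, named AVC E9, AVC E10, LV E9 and LV E10, 12 arrays in all. The embryos carried no treatment or transgene that the labels name, and the sources used here do not give their strain, sex or number per sample. Nothing says whether the 3 arrays of a group came from separate litters or pools, so each p-value reflects only how these arrays vary, which may be technical.

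Collagens are secreted or membrane-bound proteins built from triple helices of alpha chains. Type IV collagen forms the sheet-like network of basement membranes, where it is bound to laminins through nidogen. Type VI collagen forms beaded filaments around cells, type VII anchors epithelial basement membranes, and types VIII and X form short-chain networks. The FACIT collagens, such as types IX, XVI and XXII, sit on the surface of fibrils or at tissue boundaries and do not form fibrils alone. Types XIII, XVII, XXIII and XXV span the plasma membrane, and types XV and XVIII, the multiplexins, carry proteoglycan chains. In the heart tube such molecules lie in the basement membranes of endocardium and myocardium and in the cardiac jelly between them, from which the cushions and later the valves are made.

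The label non-fibrillar does not hold for the whole set. Col5a3, Col24a1 and Col27a1 encode fibril-forming chains by their sequence, but the symbol rule keeps them. Col5a3 and Col24a1 were above background on 0 arrays. In the fit of all arrays, none of these genes, Col27a1 included, passed at an adjusted p under 0.05. They still enter the counts and medians taken over all members. Col24a1 is among the members whose arrays did not overlap between regions at E9. Col6a3, Col12a1 and Col20a1 were not analysed here.

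The 5 promoters below belong to members that lie side by side or that moved together in the results. Col4a5 and Col4a6 sit head to head on the X chromosome, with annotated starts 1343 bases apart on opposite strands, and both were brighter in the AVC. Col8a1 and Col8a2 encode the chains of type VIII collagen and Col16a1 that of type XVI, and within each region the arrays of all 3 genes were brighter at E10. Each sequence is from RefSeq on GRCm38.p6, 5′ to 3′ on the strand of the gene, and starts 250 bases before the annotated start. Bases inside the annotated span of the gene were left off. Capitals mark matches on either strand to the TATA box core TATAAA, to the CCAAT box, to the GC box core GGGCGG and to the SOX site core CATTGT. The stretches are chrX:141475169-141475369 on the plus strand for Col4a5, chrX:141474096-141474326 on the minus strand for Col4a6, chr16:57754738-57754987 on the minus strand for Col8a1, chr4:126286544-126286793 on the plus strand for Col8a2 and chr4:130047590-130047816 on the plus strand for Col16a1.
Col4a5: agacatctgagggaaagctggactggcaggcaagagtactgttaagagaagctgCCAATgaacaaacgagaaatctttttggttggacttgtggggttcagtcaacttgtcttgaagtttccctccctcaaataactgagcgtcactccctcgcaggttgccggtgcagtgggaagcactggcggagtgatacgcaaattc
Col4a6: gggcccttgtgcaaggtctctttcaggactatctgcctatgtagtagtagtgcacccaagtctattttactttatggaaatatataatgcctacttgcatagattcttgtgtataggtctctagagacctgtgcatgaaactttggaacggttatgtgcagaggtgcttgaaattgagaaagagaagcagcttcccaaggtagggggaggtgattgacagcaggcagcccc
Col8a1: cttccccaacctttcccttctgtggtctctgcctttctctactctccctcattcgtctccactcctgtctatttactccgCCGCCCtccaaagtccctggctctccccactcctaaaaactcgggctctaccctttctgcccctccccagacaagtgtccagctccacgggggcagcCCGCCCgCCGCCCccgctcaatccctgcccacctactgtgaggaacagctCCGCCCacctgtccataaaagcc
Col8a2: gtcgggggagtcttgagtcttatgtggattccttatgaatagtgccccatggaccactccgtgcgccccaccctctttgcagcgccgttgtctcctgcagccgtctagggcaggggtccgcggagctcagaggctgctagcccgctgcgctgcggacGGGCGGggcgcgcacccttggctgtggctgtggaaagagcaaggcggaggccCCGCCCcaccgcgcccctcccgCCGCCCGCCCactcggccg
Col16a1: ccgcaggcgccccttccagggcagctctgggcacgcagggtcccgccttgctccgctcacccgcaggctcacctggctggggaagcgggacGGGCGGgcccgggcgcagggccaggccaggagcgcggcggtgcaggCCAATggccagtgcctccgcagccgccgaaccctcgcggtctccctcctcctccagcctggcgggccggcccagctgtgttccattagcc

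The stretches of Col8a1 and Col8a2 each held 4 matches to GGGCGG, that of Col16a1 held 1 and also 1 to CCAAT, that of Col4a5 held 1 to CCAAT, and that of Col4a6 held 0 of the 4 motifs. A pair of the GGGCGG matches of Col8a2 overlap, and no match overlaps that of a different motif. RefSeq promoters were at hand for 28 of the 33 members, in 31 windows of 250 bases before a start. GGGCGG was in 18 of these 31 windows and in 32.7% of all 32851 promoters of that length. Windows of Col4a5 and Col4a6 were among the 18, although their printed stretches hold 0 matches to it. The windows include bases that were left off the printed stretches of these genes. CCAAT was in 11 of the 31 windows and in 33.8% of all promoters, TATAAA in 3 and in 12.4%, and CATTGT in 1, that of Col28a1, and in 10.7%. A match is only a run of letters, and nothing about a factor follows from it. No promoter was at hand for Col4a3, Col9a3, Col14a1, Col22a1 or Col26a1.

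Each gene is given by its brightest probe over the 12 arrays, as linear intensity. A value was called above background when it exceeded the size of the most negative value on its array, 22.4 to 29.6. Log2 differences are group mean minus group mean of log2 intensity, with values under 1 set to 1, and their 95% confidence intervals and p-values come from 1 limma fit of all 12 arrays. The threshold for calling a gene was an adjusted p under 0.05 over all 19057 genes. Intensities of different probes are not comparable, so levels are compared within a gene only. Group means are given ± SD over n = 3 arrays.

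All arrays had a mean intensity of 386, and 36.7% to 41.0% of probes were above background. The regions went with their labels: 4 of 5 AVC markers (Bmp2, Rspo3, Tbx2 and Tbx3) were called higher in the AVC over both ages, and 3 of 4 chamber markers (Irx2, Nppa and Nppb) lower. Of all genes, 4.79% were called higher and 0.682% lower. Replicate 1 of LV E10 was closest to replicate 2 of LV E9, with a correlation across genes of 0.969 against a mean of 0.933 with its own group. Replicate 2 of AVC E9 and replicate 1 of AVC E10 were closest to each other, at 0.979. Results are therefore also given without replicate 1 of LV E10 and replicate 2 of AVC E9, a choice made after the data were seen.

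Of the 33 members, 20 exceeded background on every array of some group, 60.6% against 52.1% of all genes. These were Col4a1, Col4a2, Col4a5 and Col4a6 of type IV, Col6a1, Col6a2, Col7a1, Col8a1, Col8a2, the FACIT genes Col9a1, Col9a2, Col9a3, Col16a1 and Col22a1, the transmembrane genes Col13a1, Col23a1 and Col25a1, and Col18a1, Col26a1 and Col27a1. The brightest probes of 10 members were above background on all 12 arrays. Those of 12 others were above it on none: Col4a3, Col4a4, Col5a3, Col6a4, Col6a5, Col6a6, Col10a1, Col14a1, Col17a1, Col19a1, Col24a1 and Col28a1. Col15a1, the partner of Col18a1 among the multiplexins, was above it on 1 array, replicate 2 of LV E10, at 25.7.

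Across regions, some chains of types IV and IX and that of type XXII were higher in the AVC, and Col8a1 of type VIII and Col23a1 were higher in the LV. Over both ages, 7 of the 33 members were called between AVC and LV, where 5.47% of all genes were called. Higher in the AVC were Col4a5, Col4a6, Col9a1, Col9a3 and Col22a1, 5 members in a direction that 4.79% of genes took, and lower were Col8a1 and Col23a1, 2 members in a direction that 0.682% took. At E9 alone 2 members were called, both lower in the AVC (Col8a1 and Col23a1), against 1.02% of genes called, 0.855% higher and 0.168% lower. At E10 alone 3 were called, Col4a6 and Col9a3 higher and Col23a1 lower, against 2.30% of genes called, 2.06% higher and 0.241% lower. The arrays of both regions did not overlap for 9 members at E9, 10 at E10 and 5 over both ages, where 17.1%, 15.8% and 2.68% of all genes did not overlap. These counts take in genes under background, among them Col24a1 at E9 and Col14a1 at E10, which were above it on no array.

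Across ages, Col6a1, both type VIII genes, Col16a1 and Col23a1 rose, and Col7a1, Col22a1 and a single type IX gene, Col9a3, fell. Over both regions 8 of the 33 members were called, against 8.10% of genes. Col6a1, Col8a1, Col8a2, Col16a1 and Col23a1 rose from E9 to E10, 5 members where 4.62% of genes rose, and Col7a1, Col9a3 and Col22a1 fell, 3 members where 3.48% fell. In the AVC alone Col8a1 and Col16a1 rose and 0 members fell, against 0.551% of genes called, 0.430% rising and 0.121% falling. In the LV alone Col8a2 and Col16a1 rose and 0 fell, against 2.37% of genes called, 1.37% rising and 1.0% falling. Members whose arrays did not overlap between ages numbered 11 in the AVC, 10 in the LV and 3 over both regions, where 16.2%, 20.4% and 2.89% of all genes did not overlap.

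**Figure D1:**
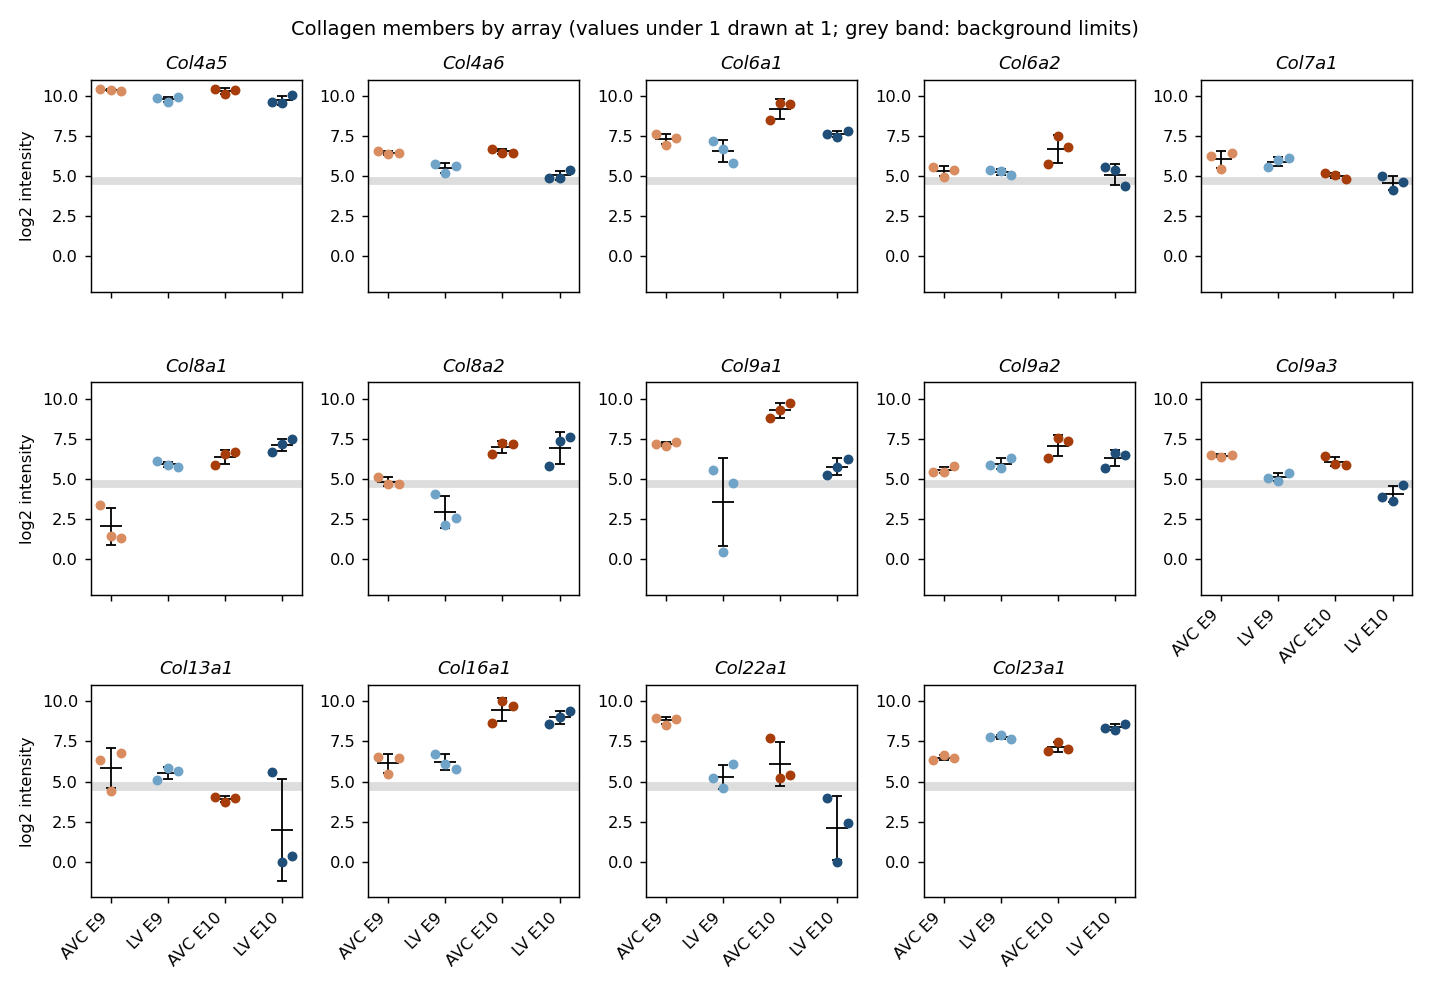
Log2 intensity (y axis) of 14 members on each array, with values under 1 drawn at 1, for the 4 groups (x axis). Points are arrays, bars the mean ± SD of 3 arrays, and the grey band spans the background limits of 22.4 to 29.6; Col4a6 and Col9a1 lie higher in the AVC at both ages, Col23a1 lies lower, and Col16a1 lies higher at E10 in both regions.

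Type IV collagen, the scaffold of basement membranes, showed different patterns for its chains. The chains of Col4a1 and Col4a2 make up the network found in nearly all basement membranes, and those of Col4a5 and Col4a6 form a network of restricted distribution. Col4a1 measured 3065, 2988 and 2405 in the AVC and 3605, 2716 and 3412 in the LV at E9, and 3718, 2522 and 2100.1 in the AVC and 4047, 1849 and 2627 in the LV at E10. Col4a2 measured 2022, 1634 and 1572 in the AVC and 2539, 1931 and 2173 in the LV at E9, and 2065, 1459.7 and 1332 in the AVC and 2511, 1269.6 and 1724 in the LV at E10. For both genes the regions overlapped at each age, as did the ages in each region. Over both ages the difference of AVC minus LV was -0.1 for Col4a1 (interval -0.59 to 0.39) and -0.25 for Col4a2 (interval -0.67 to 0.17), on the log2 scale, and with age it was -0.15 (interval -0.64 to 0.33) and -0.22 (interval -0.64 to 0.2). Neither gene was called in any comparison.

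Col4a5 measured 1349, 1309 and 1239 in the AVC and 917, 777 and 968 in the LV at E9, and 1377, 1106 and 1326 in the AVC and 775, 741 and 1039 in the LV at E10. Every AVC array was brighter than every LV array, at either age. The difference over both ages was 0.57 on the log2 scale, 1.49-fold (interval 0.34 to 0.8 in log2, adjusted p = 0.016). Relative to the median of all genes above background, which itself lay 0.13 higher in the AVC, the log2 difference was 0.44. After scaling to the 75th percentile it was 0.37 and no longer passed, with an adjusted p of 0.169. Because these are bulk samples, fewer cells that express a gene and less RNA per cell cannot be told apart, here or in any result below.

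Col4a6, the head-to-head neighbour of Col4a5, measured 95.1, 81.6 and 86.4 in the AVC and 54.0, 35.9 and 48.7 in the LV at E9, and 105, 88.5 and 86.4 in the AVC and 29.7, 29.1 and 41.2 in the LV at E10. Again no LV array reached the dimmest AVC array. The log2 difference over both ages was 1.22 (interval 0.93 to 1.52, adjusted p = 0.0023), which is 2.33-fold. At E9 it was 0.94 with an adjusted p of 0.058, and at E10 1.5 with an adjusted p of 0.0092. With age Col4a6 differed by 0.09 in the AVC and by -0.47 in the LV, neither of which passed. Col4a3 and Col4a4, whose chains join that of Col4a5 in the kidney glomerulus, were not above background on any array.

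The other probes of both genes that were above background on some arrays gave the same order of regions. The second probe of Col4a5 was above background on 12 arrays and differed by 0.82 at E9 and 0.88 at E10. One other probe of Col4a6 was above background on 9 arrays and differed by 1.23 and 1.69, while 2 others were above it on 0 arrays. Averaging all 4 probes of Col4a6 therefore lost its call, with a log2 difference over both ages of 0.53 and an adjusted p of 0.466.

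**Figure D2:**
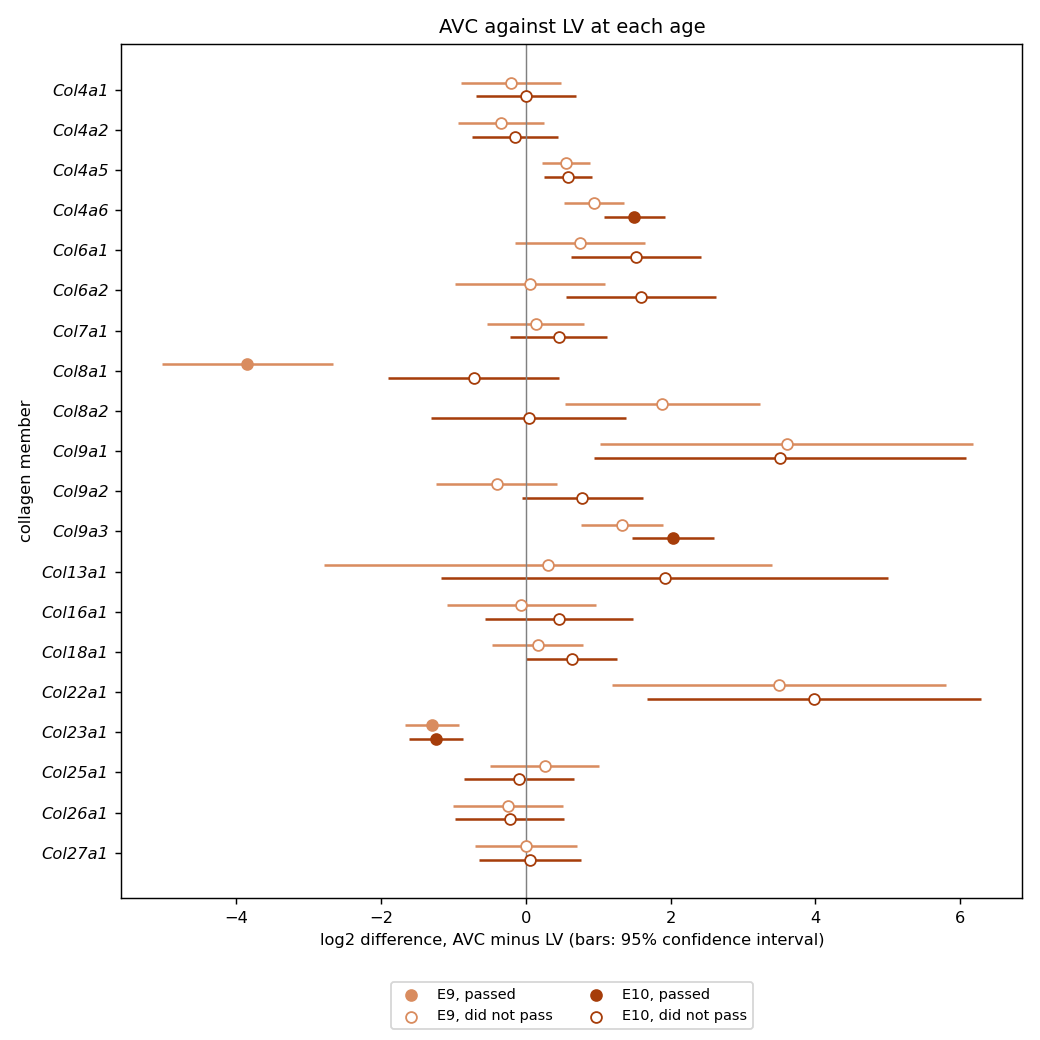
Log2 difference of AVC minus LV (x axis) for the 20 members above background in a group (y axis), at E9 (light) and E10 (dark), with 95% confidence intervals. Filled points passed at an adjusted p under 0.05; Col4a6, Col9a3 (E10) and Col8a1 (E9) are filled at a single age and Col23a1 at both, and the intervals of Col4a1, Col4a2 and Col16a1 span 0 at both.

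Type VI collagen is a ring of filaments around mesenchymal and muscle cells, and its chains are encoded by Col6a1, Col6a2 and further genes. Col6a1 measured 193, 124 and 168 in the AVC and 145, 103 and 56.8 in the LV at E9, and 354, 751 and 711 in the AVC and 199.98, 173 and 229 in the LV at E10. The AVC E10 arrays were the brightest and did not overlap with any other group. Col6a1 rose with age by 1.46 on the log2 scale over both regions (interval 0.83 to 2.1, adjusted p = 0.02), reaching 1.85 in the AVC against 1.07 in the LV. The call was lost without replicate 3 of AVC E9, replicate 2 or 3 of AVC E10 or replicate 3 of LV E10 (adjusted p up to 0.058). Its difference between regions, 1.14 over both ages, had an adjusted p of 0.054 and was not called. A second probe, above background on all 12 arrays, gave 1.79 in the AVC and 0.80 in the LV.

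Col6a2 measured 46.6, 31.2 and 42.3 in the AVC and 42.2, 39.1 and 33.2 in the LV at E9, and 53.9, 179 and 115 in the AVC and 47.5, 41.2 and 20.5 in the LV at E10. It stood out from background mainly in AVC E10, where the 3 arrays lay above all others and differed widely among themselves. The difference of AVC minus LV was 0.06 at E9 (interval -0.98 to 1.09) and 1.6 at E10 (interval 0.56 to 2.63), with an adjusted p of 0.135 at E10. The change of that difference between ages was 1.54 with an adjusted p of 0.937. Col6a4, Col6a5, Col6a6 and the type VI-like Col28a1 had no value above background, the highest being 15.1 for Col6a5.

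Col7a1, whose product makes the anchoring fibrils of skin, was low and fell with age. It measured 76.1, 44.0 and 85.1 in the AVC and 48.1, 63.4 and 70.3 in the LV at E9, and 36.4, 33.8 and 28.6 in the AVC and 31.7, 17.6 and 24.5 in the LV at E10. Every E9 array was brighter than every E10 array. The fall was -1.17 on the log2 scale over both regions (interval -1.64 to -0.69, adjusted p = 0.017), and 1 LV array at E10 was no longer above background. Its second probe was above background on no array, so the fall rests on 1 probe, and averaging both probes gave -0.52 with an adjusted p of 0.509. Without replicate 3 of AVC E10 the adjusted p was 0.0505.

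Type VIII collagen is a short-chain network collagen of vessel walls and of the developing heart, and both of its genes rose between E9 and E10. Col8a1 measured 10.4, 2.75 and 2.52 in the AVC and 68.4, 57.8 and 53.9 in the LV at E9, and 59.3, 95.6 and 102 in the AVC and 103, 142 and 177 in the LV at E10. At E9 no probe of Col8a1 was above background in the AVC, whereas all 3 LV arrays were, and by E10 both regions were. In limma the log2 difference of AVC minus LV at E9 was -3.84 (adjusted p = 0.019), and that of E10 minus E9 in the AVC was 4.32 (adjusted p = 0.021). Both rest on the AVC E9 values under background. As bounds, which were not tested, the LV was at least 2.56-fold brighter than the AVC at E9. AVC E10 was at least 3.57-fold brighter than AVC E9. At E10 the AVC arrays still lay below the LV arrays, narrowly, with a log2 difference of -0.72 (interval -1.9 to 0.46) that did not pass. In the LV the difference with age was 1.2 (interval 0.02 to 2.38, adjusted p = 0.247). The call at E9 was lost under the replicate block and without replicate 2 of AVC E9 or replicate 2 or 3 of LV E9 (adjusted p up to 0.06). That of age in the AVC was lost under the block and without replicate 3 of AVC E9 or replicate 2 or 3 of AVC E10 (adjusted p up to 0.092).

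Col8a2, encoding the partner chain, measured 34.9, 25.6 and 25.6 in the AVC and 16.8, 4.46 and 6.03 in the LV at E9, and 92.1, 149.5 and 144 in the AVC and 56.0, 163 and 199 in the LV at E10. All 6 arrays at E10 were brighter than all 6 at E9. The rise was 3.07 on the log2 scale over both regions (interval 2.12 to 4.02, adjusted p = 0.0074) and 3.99 in the LV (adjusted p = 0.022), where its brightest probe was above background on 0 arrays at E9. At E9 Col8a2 was brighter in the AVC than in the LV by 1.89, but with an adjusted p of 0.225 and LV arrays under background. At E10 the regions differed by 0.04 (interval -1.3 to 1.38). With the floor raised to the background limit, the rise of Col8a2 was 2.17 over both regions and 2.19 in the LV. The call in the LV was lost without replicate 2 or 3 of LV E9 or of LV E10 (adjusted p up to 0.097).

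The second probes of the type VIII genes were dimmer. That of Col8a1 kept every direction, with -1.78 between regions at E9 and 2.50 between ages in the AVC. That of Col8a2 gave -0.39 between regions at E9, against 1.89 for the brightest probe, and 0.53 against 3.99 with age in the LV. For Col8a2 the order of regions at E9 thus differed between probes, and the rise kept its sign in both. Col10a1, the other short-chain gene and a marker of hypertrophic cartilage, was not above background on any array.

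Type IX collagen, a FACIT best known from cartilage, is encoded by Col9a1, Col9a2 and Col9a3, and the genes differed in their patterns. Col9a1 measured 144, 134 and 156 in the AVC and 46.7, 1.35 and 26.5 in the LV at E9, and 435, 635 and 829.6 in the AVC and 37.3, 54.1 and 76.9 in the LV at E10. In the LV at E9 only 1 of the 3 arrays was above background, and in the AVC all were, with no overlap of regions at either age. The log2 difference over both ages was 3.56, with a wide interval of 1.74 to 5.38 and an adjusted p of 0.039. Replicate 2 of LV E9 stood apart at 1.35. Without that array the adjusted p was 0.0037 and the difference 2.77. The call was lost in 13 of 22 alternative settings, quantile normalization (adjusted p = 0.061), the replicate block, leaving out replicate 1 of LV E10 with replicate 2 of AVC E9, and leaving out any 1 array except replicates 1 and 2 of LV E9 (adjusted p up to 0.099). A second probe, above background on 8 arrays, gave 0.32 at E9 and 1.58 at E10.

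Col9a3 measured 89.1, 81.0 and 90.1 in the AVC and 33.6, 29.5 and 41.3 in the LV at E9, and 84.2, 61.7 and 58.4 in the AVC and 14.5, 12.6 and 24.1 in the LV at E10. Here too the AVC arrays were all brighter than the LV arrays, by 1.68 on the log2 scale over both ages (interval 1.28 to 2.08, adjusted p = 0.0022), or 3.21-fold. The means of Col9a1 on its brightest probe were higher at E10 in both regions. The second probe of Col9a1 differed with age by 1.05 in the AVC and by -0.21 in the LV. Col9a3 fell with age, by -0.72 over both regions (adjusted p = 0.043), and only 1 LV array was above background at E10. The fall was lost in 11 of 22 alternative settings, where its adjusted p reached 0.563: the mean over all probes, leaving out any 1 of the 6 arrays at E9, replicate 2 or 3 of AVC E10 or replicate 2 of LV E10, and leaving out replicate 1 of LV E10 with replicate 2 of AVC E9. Both other probes of Col9a3 were above background on no array, and the mean over its probes differed between regions by 0.54 with an adjusted p of 0.414.

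Col9a2 measured 43.9, 42.7 and 55.1 in the AVC and 58.7, 50.5 and 80.4 in the LV at E9, and 79.1, 185 and 161 in the AVC and 51.9, 98.6 and 90.9 in the LV at E10. Its arrays in the AVC were brighter at E10 than at E9 without overlap, by 1.5 on the log2 scale (adjusted p = 0.12), while those in the LV overlapped. It was called in no comparison. The difference between regions was -0.4 at E9 and 0.78 at E10.

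Col16a1, a FACIT of many connective tissues, rose in both regions. It measured 91.1, 43.9 and 88.5 in the AVC and 107, 68.1 and 55.2 in the LV at E9, and 403, 1049.6 and 832 in the AVC and 385, 516 and 676 in the LV at E10. The dimmest array at E10, 385, was brighter than the brightest at E9, 107. The rise was 3.32 on the log2 scale in the AVC (adjusted p = 0.03) and 2.8 in the LV (adjusted p = 0.027), or 9.98-fold and 6.94-fold. The call in the AVC was lost in 8 of 22 alternative settings, the replicate block and leaving out replicate 2 or 3 of AVC E9, of AVC E10 or of LV E10 or replicate 2 of LV E9 (adjusted p up to 0.127). That in the LV was lost in 5, without replicate 2 or 3 of LV E9 or of LV E10 or replicate 3 of AVC E10 (adjusted p up to 0.102). Over both regions the rise was 3.06 and was called in all 22. Between regions Col16a1 differed by 0.2 over both ages (interval -0.52 to 0.93). It had a single probe, so no second probe bears on it.

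Col22a1, a FACIT of tissue junctions such as that of muscle and tendon, was bright in the AVC at E9 and dim elsewhere. It measured 501, 376 and 475 in the AVC and 38.0, 24.1 and 67.3 in the LV at E9, and 208, 37.3 and 42.0 in the AVC and 15.5, 0.0368 and 5.29 in the LV at E10. At each age the regions did not overlap, and in each region the ages did not overlap, although AVC E10 and LV E9 did. The difference of AVC minus LV over both ages was 3.74 (interval 2.11 to 5.38, adjusted p = 0.022), and the fall from E9 to E10 was -2.94 (interval -4.58 to -1.31, adjusted p = 0.042). These log2 values depend on the floor, since replicate 2 of LV E10 was set to 1. At E10 no LV array was above background, and the log2 difference of 3.99 in limma had an adjusted p of 0.096. As a bound, which was not tested, the AVC was at least 2.75-fold brighter. That bound rests on replicate 1 of AVC E10, which was at 208 beside 37.3 and 42.0, and without it the bound was 1.58-fold. The fall was lost in 11 of 22 alternative settings, the mean over all probes and leaving out any 1 of the 6 arrays at E9 or replicate 2 or 3 of AVC E10 or of LV E10 (adjusted p up to 0.105). The difference between regions was lost in 3, without replicate 1 or 3 of AVC E9 or replicate 2 of LV E9 (adjusted p up to 0.059). Its second probe was above background on no array.

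Col14a1 and Col19a1, the other FACIT genes measured, were not above background on any array.

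Among the transmembrane collagens, Col23a1 took the opposite order of regions. It measured 80.2, 99.8 and 89.1 in the AVC and 219, 240.2 and 199 in the LV at E9, and 121, 179 and 131 in the AVC and 322, 297 and 388 in the LV at E10. Every LV array was brighter than every AVC array. Over both ages the regions differed by -1.27 (interval -1.53 to -1.0, adjusted p = 0.0014). Col23a1 also rose with age, by 0.64 over both regions (interval 0.37 to 0.9, adjusted p = 0.018), reaching 0.66 in the AVC against 0.61 in the LV. Both calls were kept in all 22 alternative settings. The call at E9 alone was lost with the mean over all probes and without replicate 1 of AVC E9 or replicate 2 of LV E9 (adjusted p up to 0.165), and that at E10 with the mean over all probes and without replicate 3 of AVC E10 (adjusted p up to 0.202). A second probe, above background on 9 arrays, differed between regions by -0.94 at E9 and -0.67 at E10 and between ages by 1.49 in the AVC and 1.22 in the LV.

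Col13a1, a collagen of cell adhesion sites, measured 80.2, 21.8 and 108 in the AVC and 34.7, 58.1 and 49.7 in the LV at E9, and 16.2, 13.1 and 15.9 in the AVC and 49.3, -6.19 and 1.27 in the LV at E10. It was above background on 5 of 6 arrays at E9 and on 1 of 6 at E10, that being replicate 1 of LV E10, the array closest to LV E9. The log2 difference with age was -2.74 (interval -4.93 to -0.56, adjusted p = 0.124). Without replicate 1 of LV E10 and replicate 2 of AVC E9 it was among the members called with age in each region and over both. Those arrays held its highest E10 value, 49.3, and its lowest AVC E9 value, 21.8. That fit called 1240, 3652 and 4557 of all genes in these contrasts, against 105, 452 and 1544 in the main fit. Col25a1, first found in brain, lay at 17.2 to 42.1 over all arrays, close to the background limits, and was called in no comparison. Col17a1, a hemidesmosome collagen, was not above background with its brightest probe.

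Col18a1, the basement membrane multiplexin from which endostatin is cut, was above background on all arrays. It measured 7383, 4752 and 7148 in the AVC and 6542, 4805 and 5679 in the LV at E9, and 6411, 7395 and 6449 in the AVC and 6531, 3140.02 and 3960.3 in the LV at E10. The difference of AVC minus LV was 0.16 at E9 (interval -0.47 to 0.79) and 0.64 at E10 (interval 0.01 to 1.27), with an adjusted p of 0.348 at E10. LV E10 held both its dimmest arrays and, in replicate 1, an array within the range of the other groups. Without replicate 1 of LV E10 and replicate 2 of AVC E9, Col18a1 was called between regions at E10 and between ages in the LV, as it was over both ages and over both regions. In the same order, that fit called 1604, 3652, 2170 and 4557 of all genes, against 438, 452, 1042 and 1544 in the main fit. Col26a1 measured 266 to 834 over the 12 arrays, and its difference with age over both regions was 0.54 (interval 0.01 to 1.08, adjusted p = 0.209). Col27a1 lay at 22.8 to 50.5, around the background limits, with a difference between regions of 0.03 over both ages (interval -0.47 to 0.53).

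**Figure D3:**
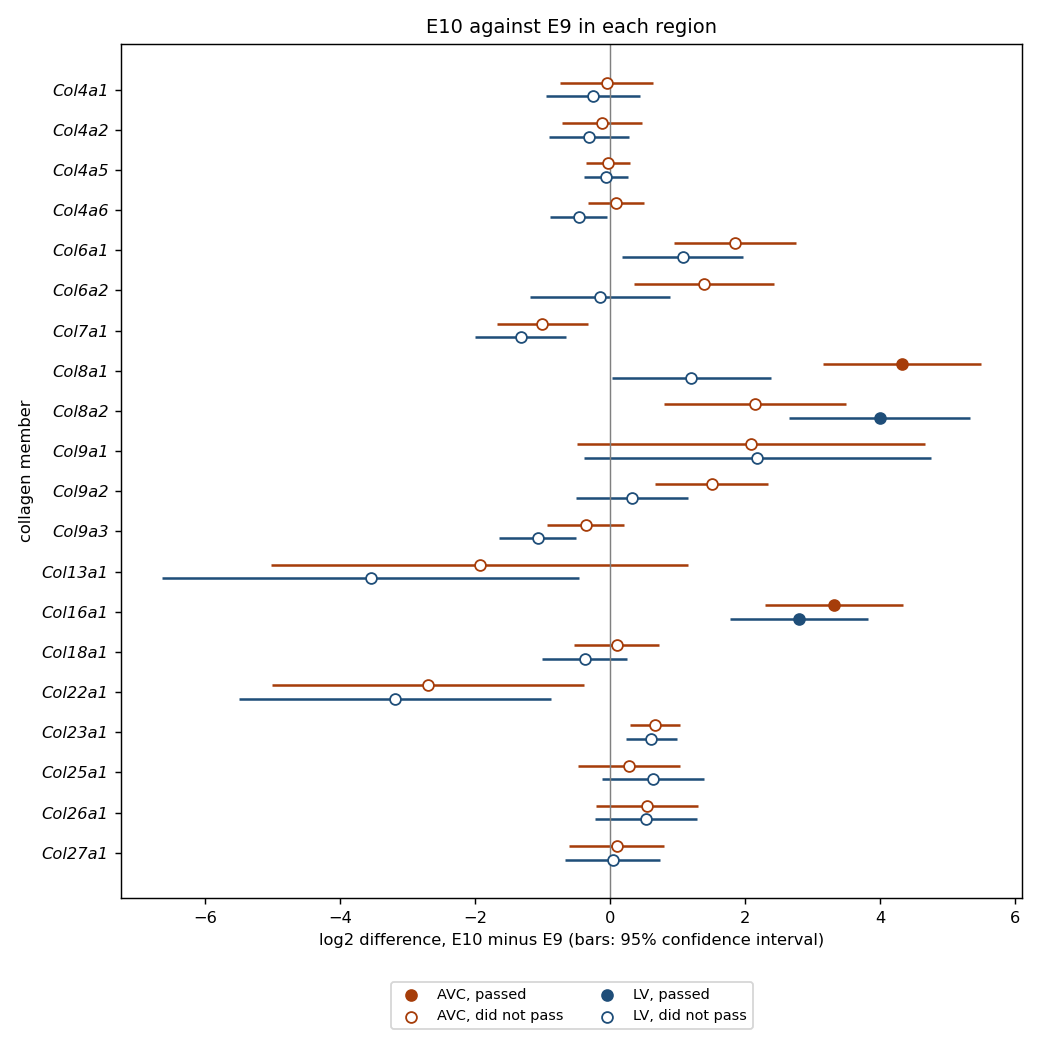
Log2 difference of E10 minus E9 (x axis) for the same 20 members (y axis), in the AVC (orange) and the LV (blue), with 95% confidence intervals. Filled points passed at an adjusted p under 0.05; Col16a1 is filled in both regions, Col8a1 in the AVC and Col8a2 in the LV, and Col4a1, Col4a2 and Col4a5 lie near 0 in both.

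Whether the region changed the effect of age was tested by the interaction. For 0 of the 33 members did it pass in limma, and 0.0315% of all genes were called. At an unadjusted limma p under 0.05 there were 3 members. The share of all genes at that threshold was not determined, so nothing is read from this count. The smallest p was that of Col8a1 (adjusted p = 0.504), whose AVC E9 arrays were all under background, so that the size of its interaction depends on the floor and is not given. Without replicate 1 of AVC E9 the interaction of Col8a1 was called, on the same values under background.

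The study's methods name thresholds of 4-fold and a p of 0.01, after signals below background were left out. Here these thresholds were applied with the unadjusted limma p and without that filter, so values under background could pass. Between regions 2 members passed at E9 and 2 at E10, where 1.17% and 1.41% of genes passed. Between ages 3 passed in the AVC and 2 in the LV, against 1.36% and 1.67% of genes. Over both ages 3 passed between regions (1.23% of genes), over both regions 4 passed between ages (1.68%), and Col8a1 alone, with AVC E9 under background, passed in the interaction (0.514%).

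**Figure D4:**
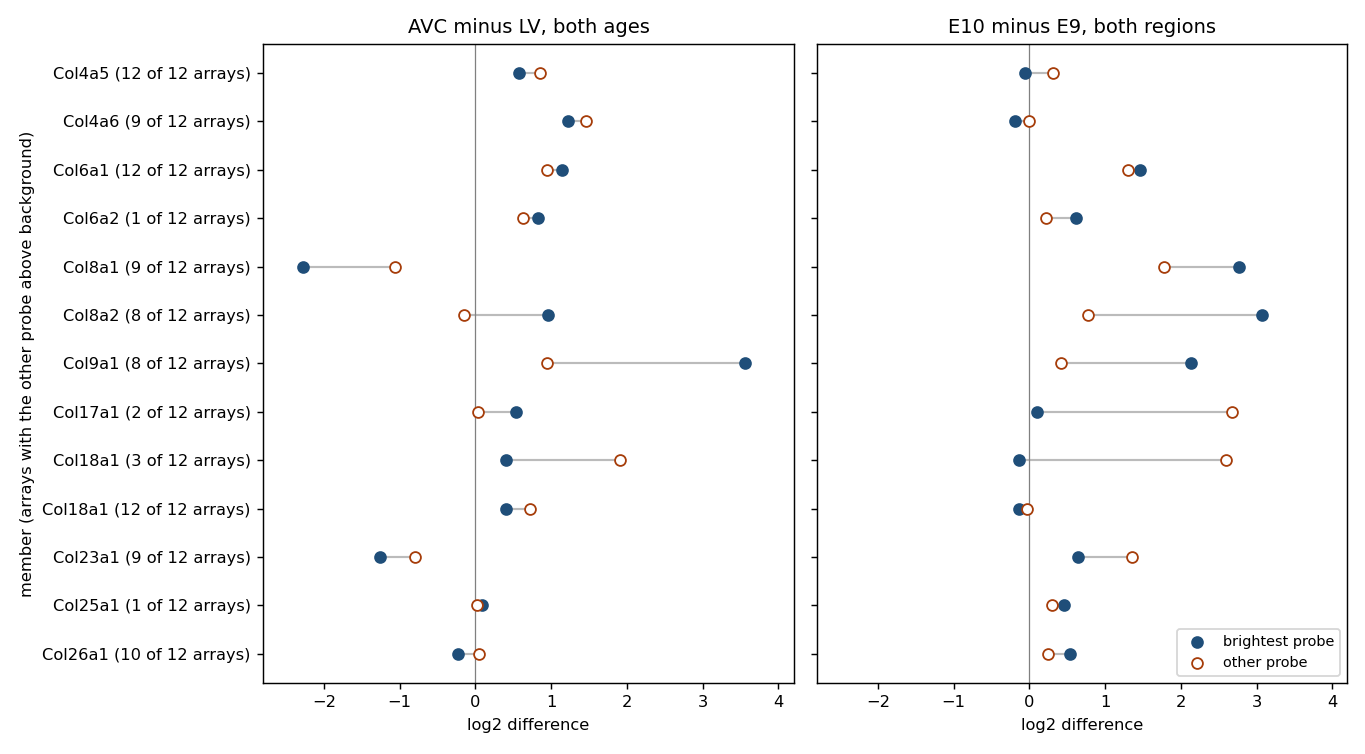
Log2 differences (x axis) of each other probe above background on at least 1 array (open) against the brightest probe of its gene (filled), for AVC minus LV over both ages (left) and E10 minus E9 over both regions (right). Each row names the gene and the number of arrays with the other probe above background; 13 of 39 other probes, in 12 genes, qualified, and both points of Col4a5, Col4a6, Col6a1, Col8a1 and Col23a1 lie on the same side of 0 between regions. Those of Col8a2 (brightest 0.96, other -0.16) and Col26a1 (brightest -0.23, other 0.05) lie on opposite sides.

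The median log2 difference over all 33 members was 0.13 at E9 and 0.34 at E10 between regions, beside 0 and 0.073 over all genes, and 0.10 between ages over both regions, beside 0. The deposited scaling left the genes above background higher in the AVC at the median, by 0.08 at E9 and 0.18 at E10, which quantile normalization brought to -0.0041 and 0.019 and scaling to the 75th percentile at E10 to -0.07. Of all genes called between regions over both ages, 87.5% were higher in the AVC in the deposited scaling, 65.3% after quantile normalization and 55.2% after scaling to the 75th percentile. No called member changed its direction in any alternative setting. The calls that a scaling ended were those of Col4a5 and Col9a1 over both ages, given above.

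Among the laminins, nidogens and other basement membrane partners of type IV collagen, 17 were measured. Lama2 and Lamb2 were called higher in the AVC over both ages and 15 were not called, where 5.47% of all genes were called. With age 4 of the 17 were called, where 8.10% of all genes were. Lama2, a laminin chain of muscle, measured 82.1, 46.9 and 79.7 in the AVC and 32.4, 21.0 and 30.0 in the LV at E9, and 103, 102 and 107 in the AVC and 36.2, 48.4 and 51.9 in the LV at E10, and its difference over both ages was 1.26 (adjusted p = 0.0064). Lamb2 differed by 0.94 (adjusted p = 0.0062), with E10 arrays of 184, 172 and 136 in the AVC and 75.6, 67.0 and 75.3 in the LV. The AVC arrays of both laminin genes lay above the LV arrays at each age, as those of Col4a5 and Col4a6 did. With age Sparc, a type IV and fibril collagen-binding protein, rose by 0.86 (adjusted p = 0.013) and Nid1 by 0.79 (adjusted p = 0.042), while Nid2 fell by 0.74 on the log2 scale (adjusted p = 0.028). Lamc3 was also called higher at E10 but was above background on only 3 of 6 arrays there.

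Collagen biosynthesis genes were called in both directions between regions. Of 27 measured, 4 were higher in the AVC over both ages (P4ha3, P3h3, Plod1 and Plod2) and P3h2 was lower, beside the 5.47% of all genes called. P3h2, a prolyl 3-hydroxylase of basement membrane collagens, measured 147, 102 and 178 in the AVC and 382, 327 and 353 in the LV at E9, and 145, 106 and 128 in the AVC and 253, 271 and 225 in the LV at E10, brighter on every LV array than on any AVC array, and differed by -1.17 (adjusted p = 0.0036). P3h3, a related gene, measured 151, 112 and 97.5 in the AVC and 56.5, 64.9 and 68.7 in the LV at E9, and 259, 342 and 335 in the AVC and 139.8, 198 and 194 in the LV at E10. Its difference was 0.86 in the other direction (adjusted p = 0.012), and it also rose with age by 1.43 (adjusted p = 0.0029). The lysyl hydroxylase genes Plod1 and Plod2 differed by 0.5 (adjusted p = 0.011) and 0.59 (adjusted p = 0.036). P4ha3 was above background on no array. With age 4 were called, beside 8.10% of all genes, each higher at E10: Lox, Loxl1, P3h3 and P4ha3. Loxl1, a cross-linking oxidase, measured 591, 335 and 364 in the AVC and 573, 403 and 265 in the LV at E9, and 1289.98, 1768 and 1860.04 in the AVC and 1099, 1748 and 2245 in the LV at E10 and rose by 2.0 (adjusted p = 0.0071). Lox, its relative, was above background on 1 of 6 arrays at E9 and 5 of 6 at E10.

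Of 13 collagen receptors measured, Antxr1, a receptor that binds collagens, was the 1 called between regions over both ages (5.47% of all genes), higher in the AVC. It measured 118, 83.9 and 85.8 in the AVC and 62.6, 47.2 and 73.9 in the LV at E9, and 169, 212 and 259 in the AVC and 42.0, 58.5 and 90.0 in the LV at E10, with a difference of 1.23 (adjusted p = 0.015). Col6a1 and Col6a2 had their brightest arrays in AVC E10, as Antxr1 did. Itga1, an integrin chain that binds type IV collagen, rose with age by 1.35 (adjusted p = 0.025), and Adgrg6, an adhesion receptor that binds type IV collagen, rose by 0.81 (adjusted p = 0.013).

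Of the 8 fibrillar genes left out by the rule, 2 were called between ages over both regions, where 8.10% of all genes were. Col3a1 rose by 1.48 (adjusted p = 0.0074), and Col2a1, which forms the fibrils that type IX collagen coats, fell by 2.6 on the log2 scale (adjusted p = 0.0074). Col2a1 measured 2779, 2259 and 2221 in the AVC and 2247, 1501 and 3002 in the LV at E9, and 1766, 474 and 532 in the AVC and 256, 167 and 153 in the LV at E10. Its fall ran the same way as that of Col9a3 and the opposite way to the means of the brightest probes of Col9a1 and Col9a2.

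Markers of cell types also moved with region and age. Of 7 cushion mesenchyme markers, 4 (Pdgfra, Snai2, Sox9 and Twist1) were called higher in the AVC over both ages, where 4.79% of all genes were. Their summed intensity over all 7 ran from 3729 to 5379 in the AVC and from 1268 to 1653 in the LV at E9, and from 6284 to 7478 and from 1178 to 2211 at E10. Such sums, here and below, follow the brightest probes and do not measure the amount of a cell type. In replicate 1 of AVC E9, Sox9 made up 2939 of the 5379. Of 5 epicardial and proepicardial markers, 4 (Aldh1a2, Tcf21, Upk1b and Upk3b) rose with age, where 4.62% of all genes rose. The sum of all 5 went from 602 to 854 at E9 to 4867 to 5462 at E10 in the AVC and from 318 to 921 to 2954 to 6679 in the LV. Of 8 endothelial and endocardial markers, 4 (Emcn, Pecam1, Tek and Tie1) rose with age, beside the same 4.62% of all genes. Between regions over both ages, Tek was called higher in the AVC and Emcn lower. The part of these cells in the differences of Col4a5, Col4a6, Col9a1, Col9a3 and Col22a1 between regions, and of Col6a1, Col8a1, Col8a2, Col16a1 and Col23a1 between ages, was not tested. Of 7 endoderm and epithelium markers, Cdh1, Krt8, Krt18, Krt19 and Ttr were above background on all arrays at E9, while Epcam and Foxa2 were on none. The sum of all 7 ran from 3457 to 5182 in the AVC and from 1813 to 3758 in the LV at E9, and from 1218 to 2875 and from 1257 to 3715 at E10.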

How the data were processed

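Total RNA from dissected AVC and primary ventricle was labelled as biotinylated cRNA and profiled on Illumina Mouse WG-6 v2 arrays. The values deposited by the authors are of intensity on a linear scale, with the same mean on each array and 34.7% of values below 0, so they had been background subtracted and scaled. The sources used here name neither the program that did so nor the chip of each array. Their number, 3 per group, limits the precision.

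Of 45281 probes, 34885 had 1 gene symbol in the platform annotation, 18 had several and 10378 had none listed, and the first of these gave 19057 genes. Each gene was represented by its brightest probe. Values under 1, 36.8% of all, were set to 1 and log2 was taken, so a log2 difference that involves them depends on this floor. Where 1 group was above background on all arrays and no probe of the gene was in the other, the fold is a bound: the brighter group was averaged over its arrays and set against the lowest signal above background on each dim array, averaged likewise. The 4 groups were fitted together with limma 3.58.1 in R 4.3.3, with 7 contrasts. P-values are two-sided and adjusted by the Benjamini-Hochberg method over all 19057 genes. The script was tested on simulated data. The members, gene lists and alternatives were chosen with earlier results of these data known. Values by array are given for members called in any contrast or with a log2 difference of at least 1 in size, and for a few further members above background. Alternatives were quantile normalization, scaling to the 75th percentile, the floor at the background limit, an offset of 16, a filter on genes above background, the mean over all probes, a replicate block, array weights, a variance trend, the study's thresholds and leaving out each array.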

Additional observations from a re-analysis of the deposited data

How the results depend on the processing

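The 24 calls of a member in a contrast were each recomputed under 22 alternatives, 528 values, of which 449 kept direction and call, 79 kept direction without the call and 0 reversed. Calls kept under all 22 were those of Col8a1 and Col23a1 between regions over both ages and of Col8a1, Col8a2, Col16a1 and Col23a1 between ages over both regions. Counts of members called in the order regions at E9, regions at E10, ages in the AVC and ages in the LV were 2, 3, 2 and 2. They became 6, 7, 8 and 4 with the floor at the background limit, and 4, 5, 4 and 4 over genes above background only. Array weights gave 4, 9, 9 and 8, and 11 between regions over both ages instead of 7. Counts over all 19057 genes, in the same order, were 195, 438, 105 and 452 in the main fit. They were 370, 735, 497 and 964 with that floor and 636, 2143, 2050 and 3997 with array weights. Array weights called 2619 genes between regions over both ages, and the main fit 1042. Among the 9931 genes above background, 347, 573, 289 and 978 were called. An offset of 16 gave 5 at E9, where 221 of all genes were called. The mean over all probes gave 1 at E9, 0 at E10 and 5 between ages over both regions instead of 8. All genes called under that mean numbered 152, 276 and 1206. Of the calls at each age, those of Col23a1, Col4a6 and Col9a3 were lost with it, and of the calls over both regions those of Col7a1, Col9a3 and Col22a1. The thresholds of 4-fold and p of 0.01 gave 3 between regions over both ages, 4 between ages over both regions and 1 for the interaction.

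Whether replicate numbers pair the arrays was not settled, and the main fit took no account of them. Deviations of same-numbered arrays from their group means correlated at -0.365 to 0.524 in 18 pairs, 9 of them over 0.1. Their median was 0.10. For 36 differently numbered pairs the range was -0.542 to 0.507 and the median -0.08, with 9 over 0.1. Same-numbered AVC and LV arrays correlated at 0.234, 0.094 and 0.276 at E9, and at -0.098, 0.103 and 0.121 at E10. A replicate block gave 1 call at E9 and 0 between ages in the AVC, with the other counts within 1.5 times. Over all genes the block gave 134 and 66 calls in these contrasts. Leaving out 1 array in turn, or replicate 1 of LV E10 with replicate 2 of AVC E9, gave 0 to 4 calls at E9, 2 to 6 at E10, 0 to 4 between ages in the AVC, 0 to 6 in the LV, 5 to 8 between regions over both ages, 4 to 10 between ages over both regions and 0 to 1 for the interaction. In the same order, these fits called 59 to 422, 97 to 1604, 25 to 1240 and 54 to 3652 of all genes. For the last 3 contrasts they called 567 to 2170, 554 to 4557 and 10 to 67. The count of members was 0 without replicate 2 of LV E9 for regions at E9, without replicate 2 or 3 of AVC E10 or replicate 3 of AVC E9 for ages in the AVC, and without replicate 2 or 3 of LV E9 or replicate 2 of LV E10 for ages in the LV. The cause was not tested. Signal over background limits what can be said of the 13 members that were not above background on all 3 arrays of a group.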

Other observations

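A further probe of Col17a1 and 1 of Col18a1 gave means in another order than the brightest probes of those genes. A probe of Col17a1, above background on 2 arrays, had means of 1.34 in AVC E9, 1.64 in LV E9, 15.5 in AVC E10 and 19.9 in LV E10, and its brightest probe 9.59, 12.7, 11.4 and 8.03. A probe of Col18a1, above background on 3 arrays, had means of 2.46, -2.04, 31.3 and 8.43 in these groups, beside 6428, 5675, 6752 and 4544 for the brightest. The third probe of Col18a1, above background on 12 arrays, had means of 462, 348, 556 and 282, which rank the groups as the brightest probe does. None of these differences was tested, and the probes were chosen after their values were seen.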
